A study of Mus musculus with 45 samples.

Results

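The genes described here are 9 transcription factors known for lineages other than pluripotent cells. They include the AP-2 factors Tfap2a and Tfap2c and the GATA factors Gata2, Gata3, Gata4 and Gata6. The others are the trophoblast factors Cdx2 and Eomes and the epithelial factor Elf3. All 9 were taken by name, with no threshold on their values. The deposited gene table held 7 of the 9 among its 23575 genes; Cdx2 and Eomes have no gene value there. The study sequenced long cDNA reads (Oxford Nanopore) from mouse neural progenitor cells during reprogramming to pluripotency. The progenitors were stably transfected lines derived from O4G, an Oct4-GFP embryonic stem cell line made from the R1 line. Their genotype is given as OKMS-Luciferase-AS, OKS-Luciferase-AS or WT, and the role of the luciferase element is not stated. OKMS and OKS are reprogramming factor sets that differ by Myc in name, and doxycycline switches them on.

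Progenitors were sampled in NPC medium (4 R9 and 4 R10 libraries: OKMS, OKS and WT). OKMS and OKS cells were sampled in FBS-LIF with doxycycline, a serum medium with LIF, 1 library per system, day and chemistry: R9 at days 2, 4, 6, 10, 14 and 20, and R10 at days 2, 6 and 18 for both systems and days 4 and 10 for OKMS. WT cells, which carry no factors, were held in the same medium with doxycycline for 2 days (1 R9 and 2 R10 libraries). Cells moved to 2i-LIF (LIF with inhibitors of Mek and Gsk3) gave R9 libraries at day 14 (OKMS) and day 20 (both systems) and R10 libraries at day 18 (both systems). The move came at day 6 for R9, and the labels do not give its day for R10. For embryonic stem cells, all kept in 2i-LIF, there were 2 R9 libraries (O4G and R1) and 7 R10 libraries (O4G, R1 and R1-Clone3, named as 1 clone). R9 libraries were direct cDNA of poly(A)-enriched RNA and R10 libraries PCR cDNA of total RNA. Nothing says that libraries of a group came from separate cultures, or whether an R9 and an R10 library share RNA. The p-values therefore measure the spread between these libraries only, which may be technical. Where OKMS and OKS are paired by day, that spread is of their difference across days and includes change over time.

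Tfap2c, Gata3, Cdx2 and Eomes are known for specifying and maintaining the trophoblast, the lineage that forms the placenta. Gata4 and Gata6 are known for the primitive endoderm, Tfap2a for surface ectoderm and neural crest, Gata2 for blood stem cells and trophoblast giant cells, and Elf3 for epithelia. Tfap2c is also known in primordial germ cells and in naive pluripotent cells. AP-2 factors bind GC-rich palindromes and GATA factors bind the letters for which they are named.

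The positions below are on GRCm38 (mm10), from GENCODE M21, 1-based. Tfap2a lies at chr13:40715302-40738376 on the minus strand and Tfap2c at chr2:172549593-172558622 on the plus strand. Gata2 lies at chr6:88193891-88207032 (plus), Gata3 at chr2:9857078-9890034 (minus) and Gata4 at chr14:63198922-63271692 (minus). Cdx2 lies at chr5:147300805-147307270 (minus), Eomes at chr9:118478212-118486132 (plus) and Elf3 at chr1:135253575-135258568 (minus). For all 7 genes with values, the deposited models overlap the annotated gene. GENCODE places 9 other genes over a member, of which 1 was in the gene table (Gm47061, antisense to Tfap2a, 24 reads in all libraries). Whether counting used strand is not given in the sources used here, so reads of such pairs cannot be told apart; the antisense gene Gm26642 spans all of Elf3.

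Promoter letters are shown because Oct4, 1 of the induced factors, is known to bind the octamer, and because AP-2 and GATA factors have motifs of their own. RefSeq (GRCm38.p6) gave promoter windows of 250 bases before the start for Elf3, Gata3, Cdx2, Gata2, Eomes and Tfap2a. The letters searched, on both strands, were GCCNNNGGC (AP-2), AGATAA (bound by GATA factors), ATGCAAAT (the octamer), CACGTG (the E-box bound by Myc) and GGGTGTGG (a Klf4 motif). Of all 32851 windows in the RefSeq table, 13.7% hold GCCNNNGGC, 9.99% AGATAA, 1.60% ATGCAAAT, 6.02% CACGTG and 3.20% GGGTGTGG. The windows of Elf3 and Cdx2 each hold 1 octamer, and that of Gata3 holds 3 matches to GCCNNNGGC within 34 bases. These 3 stretches follow, 5′ to 3′, with the matches in capitals.
Elf3, chr1:135258602-135258631, minus strand: tggcacggaatATGCAAATcacctgggaca
Cdx2, chr5:147307378-147307407, minus strand: caacttttaaaATGCAAATcgtgtttctgg
Gata3, chr2:9878813-9878846, minus strand: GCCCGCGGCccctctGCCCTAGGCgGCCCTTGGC
The Elf3 octamer lies 148 to 141 bases before the RefSeq start and falls inside an exon of a deposited Elf3 transcript that starts further upstream. The Cdx2 octamer lies 147 to 140 bases before its start, and the 3 Gata3 matches lie between 246 and 213 bases before its start. Cdx2 and the proximal start of Gata2 hold 1 further GCCNNNGGC match each. A match describes letters only, and nothing here measured binding.

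The libraries held 448250 to 1391635 reads in R9 and 567129 to 4245818 in R10. Gene values are CPM, the reads of a gene scaled to a common library total. The labels were checked on markers: Pou5f1 was at 856 to 1402 CPM in the 9 stem cell libraries and at most 3.87 in the 8 progenitor libraries, and Fabp7 was at 2624 to 5207 CPM in progenitors and at 0 in 8 of 9 stem cell libraries. The exception was R10 R1 replicate 3, with 21.7 CPM of Fabp7. That library also held 0.124% mitochondrial reads against 1.81% to 2.35% in the other R10 stem cell libraries. Over all 45 libraries the members gave 4016 reads for Elf3, 1435 for Tfap2c, 376 for Tfap2a, 168 for Gata2, 112 for Gata4, 46 for Gata3 and 28 for Gata6. None of the 4 GATA factors passed 19 reads in a library. In bulk samples, fewer cells expressing a gene and less RNA per cell cannot be told apart.

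Tfap2c was the member that separated OKMS from OKS most clearly by day. In R9 OKMS it read 4.52, 29.2, 36.8, 38.0, 16.9 and 25.9 CPM at days 2, 4, 6, 10, 14 and 20. In R9 OKS it was at 0 through day 10 and then at 2.48 (day 14) and 20.1 CPM (day 20). OKMS was higher at each of the 6 days. A count of 0 allows up to 3 reads, which is 2.86 to 6.69 CPM in these 4 OKS libraries, and at day 2 the OKMS value (4.52) is close to the OKS limit of that day (4.01). Over days 2 to 10 the OKMS mean of 27.1 CPM was 27.1-fold a floor of 3 reads over the OKS group.

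R10 gave the same order. Tfap2c read 8.69, 42.6, 93.6, 112 and 29.7 CPM in OKMS at days 2, 4, 6, 10 and 18, and 0, 2.56 and 16.6 CPM in OKS at days 2, 6 and 18. OKMS was higher at the 3 shared days. Its highest libraries were those of days 6 and 10, which lay above all 7 R10 stem cell libraries (19.7 to 51.6 CPM). In R9 the OKMS libraries of those days lay below both stem cell libraries (41.7 and 56.8 CPM), so the position relative to stem cells differed between the chemistries.

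Elf3 appeared later. In R9 OKMS it read 2.26, 2.09, 5.46, 26.7, 30.6 and 20.9 CPM from day 2 to day 20, and in R9 OKS 0, 0.954, 0, 0, 1.65 and 29.5 CPM. OKMS was higher at 5 of 6 days, and at day 20 OKS was the higher. In R10 OKMS it read 0.790, 3.19, 10.6, 49.2 and 69.7 CPM from day 2 to day 18, against 0, 0 and 12.8 CPM in OKS. Its OKMS values at day 6 and before were below those at day 10 and after in both chemistries. Tfap2c, in contrast, had reached 29.2 (R9) and 42.6 CPM (R10) by day 4.

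**Figure D1:**
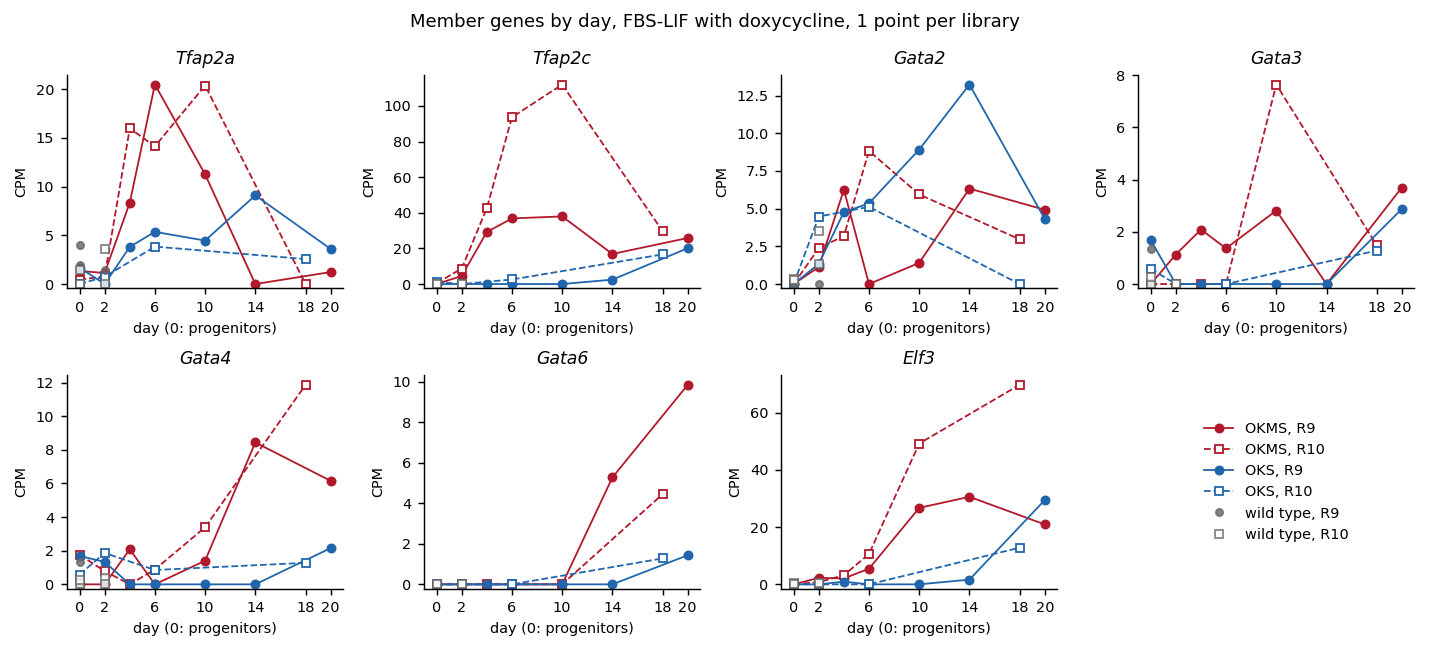
CPM (y axis, own scale per gene) against day (x axis, 0 for progenitors) in FBS-LIF with doxycycline, 1 point per library, for the 7 members with values. Colours give OKMS, OKS and wild type, and filled circles with solid lines are R9 and open squares with dashed lines R10. Tfap2c in OKMS leaves the axis by day 4 and Elf3 by day 10, and the OKS curves of both stay at 2.56 CPM or less through day 14.

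The factor sets were carried by different transfected lines, so factor set and line cannot be told apart. The question of this comparison was how OKMS and OKS cells differ at matched days. It was tested in the 6 R9 day pairs with limma on log2(CPM + 1), the day as a block and Benjamini-Hochberg adjustment over all 14277 genes tested. A gene was called at an adjusted p under 0.05 and a log2 difference of at least 1 in size. Of all genes, 18% were called, with 6.93% higher and 11% lower in OKMS (990 and 1577 genes). Median centring turned that split to 1438 higher and 1234 lower. Of the 6 members tested, 2 were called, both higher in OKMS. Tfap2c was higher by 3.44 ± 0.62 (log2, SE; adjusted p = 0.00227) and Elf3 by 2.16 ± 0.61 (adjusted p = 0.0194). Mitochondrial reads were lower in OKMS at 5 of the 6 days (0.336% to 0.707% against 0.387% to 0.989% over all 6), and their part in the calls was not tested.

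Tfap2c kept its call without any 1 of the pairs (adjusted p at most 0.0136). Elf3 lost it without the pair of day 6 (2.05, adjusted p = 0.0629), of day 10 (1.63, adjusted p = 0.0651) or of day 14 (1.88, adjusted p = 0.0642), and with edgeR's quasi-likelihood test (adjusted p = 0.0545). In the 3 R10 pairs Tfap2c differed by 2.94 (adjusted p = 0.235) and Elf3 by 2.24 (adjusted p = 0.239) in the same limma model, where no gene of the whole table was called. Without the day as a block the differences stayed at 3.44 and 2.16, and limma gave an adjusted p of 0.0694 for Tfap2c and 0.135 for Elf3.

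The 4 other members tested did not pass. Gata3 differed by 1.03 ± 0.44 (limma, adjusted p = 0.0970), Gata4 by 1.01 ± 0.55 (0.184), Gata2 by −0.89 ± 0.49 (0.192) and Tfap2a by 0.10 ± 0.61 (0.921). Gata6 was above 0 in too few of these libraries to be tested. Tfap2a differed in opposite directions by day. It read 1.13, 8.35, 20.5, 11.3, 0 and 1.23 CPM in R9 OKMS and 0, 3.81, 5.36, 4.46, 9.10 and 3.59 CPM in R9 OKS. OKMS was higher at days 2 to 10 and lower at days 14 and 20. At day 2 the 0 of OKS allows up to 4.01 CPM, above the OKMS value. At day 20 the OKMS value lay below the 3.69 CPM that 3 reads make in that library.

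R10 showed the Tfap2a peak in OKMS again. Its values were 0.790, 16.0, 14.1, 20.4 and 0 CPM at days 2, 4, 6, 10 and 18, against 0.746, 3.84 and 2.56 CPM in OKS at days 2, 6 and 18. The 0 of OKMS at day 18 allows up to 4.45 CPM, above the OKS value of that day. The 20.5 CPM of R9 day 6 and the 20.4 of R10 day 10 were the highest Tfap2a values of the series. Whether the OKMS minus OKS difference itself changed between days 2 to 6 and days 10 to 20 was tested as an interaction in R9. For Tfap2a it was −2.34 ± 1.13 (limma, adjusted p = 0.630), and for Tfap2c −1.54 ± 1.24 (adjusted p = 0.795). Of 17284 genes tested, 0% were called; 1406 had an unadjusted p under 0.05. On the recovered reads edgeR called 84 genes, Tfap2c among them (−5.33, adjusted p = 0.0365), and DESeq2 called 5.

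Gata2 ran higher in OKS than in OKMS over the middle of the R9 course. It read 1.34, 4.77, 5.36, 8.92, 13.2 and 4.31 CPM in OKS and 1.13, 6.26, 0, 1.41, 6.33 and 4.93 CPM in OKMS from day 2 to day 20. OKS was higher at 4 of 6 days, and the 13.2 CPM of day 14 rests on 16 reads. In R10 the order was mixed, with 4.48, 5.12 and 0 CPM in OKS against 2.37, 8.83 and 2.97 CPM in OKMS at days 2, 6 and 18. The fitted R10 difference had the opposite sign (0.66, limma, adjusted p = 0.638).

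The highest FBS-LIF values of the endoderm factors Gata4 and Gata6 came at days 14 to 20 in OKMS, without a call: the change of the OKMS minus OKS difference was 1.76 ± 0.95 for Gata4 (limma, adjusted p = 0.662) and 1.60 ± 0.80 for Gata6 (adjusted p = 0.639). Gata6 was at 0 in every progenitor, WT and FBS-LIF library up to day 10 of both systems and chemistries. It then read 5.28 and 9.85 CPM in R9 OKMS at days 14 and 20, 4.45 CPM in R10 OKMS at day 18, and at most 1.44 CPM in OKS. In R9 OKMS, the mean of days 14 and 20 was 7.08-fold a floor of 3 reads over days 2 to 10. That split lies where the reads begin, and the counting error of the later reads is not included. These levels rest on 3 to 8 reads each.

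Gata4 read 8.44 and 6.16 CPM in R9 OKMS at days 14 and 20 and 11.9 CPM in R10 OKMS at day 18. Up to day 10 it was at most 3.39 CPM in OKMS, and in OKS it was at most 2.16 CPM at any day. Gata3 reached its maximum of 7.64 CPM (9 reads) in R10 OKMS at day 10. In R9 it was above 0 in 5 of 6 OKMS libraries, at 1.13 to 3.69 CPM, and in 1 of 6 OKS libraries (day 20, 2.87 CPM).

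Marker genes of the same lineages differed between OKMS and OKS as well, from lists that share some genes. Over all genes tested, 6.93% were called higher and 11% lower in OKMS. Of 22 trophoblast markers 13 were tested; 5 rose in OKMS over OKS (Krt8, Krt18, Plet1, Rhox6, Sox15) and Id2 fell, with a median of 1.10 against −0.11 over all genes. The keratins Krt8 (2.84) and Krt18 (2.78) build the filaments of simple epithelia. Of 18 surface epithelium markers 11 were tested, 5 rose (the adhesion genes Cdh1 by 3.54 and Epcam by 3.63, with Esrp2, Grhl1 and Grhl3) and none fell. Of 19 primitive endoderm markers 9 were tested, 2 rose (Lama1, Srgn) and 4 fell (the matrix genes Col4a1, Col4a2 and Sparc, and Dab2). All markers of these 3 lists that rose were also called higher in stem cells over progenitors (R10). Those that fell were called lower there, except Dab2.

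Summed over the list, the trophoblast markers were at 440 to 924 CPM in R9 OKMS of days 2 to 10 and 1016 to 1336 CPM in OKS. In R10 the ranges overlapped (461 to 1426 and 1079 to 1169 CPM). The number of markers above 0 went the other way in R9, 11 to 17 of 18 in OKMS and 6 to 10 in OKS. A sum follows the most abundant genes of a list, so it does not give the level of most of them. Of 5 neural crest markers tested, the lineage for which Tfap2a is known, none rose and 2 fell (Sox9 by 1.60 and Twist1 by 1.27; median −0.66). Of 2 mesoderm markers tested 1 fell (Pdgfrb), and of 5 fibroblast markers 3 fell (Col3a1, Dcn, Pdgfrb).

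Of 10 stem cell markers, 9 were tested and 3 rose in OKMS over OKS (Dppa5a, Nanog by 3.15 and Zfp42), while 4 of 8 progenitor markers tested fell. The summed stem cell markers were at 68.9 to 5111 CPM in R9 OKMS of days 2 to 10 and 89.6 to 133.9 CPM in OKS. These sums include Pou5f1 (Oct4), an induced factor, at 52.0 CPM in R9 OKMS and 62.8 CPM in R9 OKS at day 2. The part of the induced copy was not tested. The defining trophoblast genes Elf5, Gcm1, Tpbpa and Prl3d1 and the endoderm genes Sox17, Sox7 and Foxa2 have no value in the gene table, like Cdx2 and Eomes. The part of other cell types in the member differences was not tested. Among 16 family relatives and cofactors 5 were tested, and the AP-2 coactivator Cited2 fell (−1.28, limma, adjusted p = 0.00760). That is 1 of 5, where 18% of all genes were called and 11% were lower.

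The time course from progenitors asked for change shared by both systems, with limma's moderated F test over 6 days in 14 R9 libraries. Of 19357 genes 10.7% were called (5.50% higher and 5.24% lower, by the sign of the largest difference). None of the 7 members was. Elf3 differed most at day 20 (4.69 ± 1.17, adjusted p = 0.121), as did Tfap2c (4.57 ± 1.30, adjusted p = 0.245) and Gata6 (2.36 ± 0.72, adjusted p = 0.138). Gata2 differed most at day 14 (3.35 ± 0.88, adjusted p = 0.143). Each is the largest of 6 differences, whose median over all genes was 0.63 (signed). On the recovered reads edgeR called Elf3 (adjusted p = 9.30e-12) and Tfap2c (1.18e-08), and DESeq2 called Elf3 (0.00583).

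Other genes of the lists did pass this test. Tead4, the trophoblast factor that acts with Yap, rose by 4.02 at day 6, and Hand1 and Tfeb rose at day 20, the only 3 of 18 trophoblast markers called. Ehf, the close relative of Elf3, rose by 4.41 at day 4 (limma, adjusted p = 0.0313). Its order over days was unlike that of Elf3. Ehf read 15.8, 35.5, 15.0, 7.03, 5.28 and 2.46 CPM in R9 OKMS and 13.4, 11.4, 8.03, 11.2, 35.6 and 0.719 CPM in R9 OKS. It was at 0 in all 4 R9 progenitor libraries and at most 0.931 CPM in the 9 stem cell libraries, where Elf3 was high.

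Day 2 was compared with WT cells in the same medium with doxycycline, 2 R10 libraries against 2, which holds the medium the same. Mitochondrial reads were 1.51% and 1.64% in the factor libraries and 0.319% and 0.165% in WT, and their part in the calls was not tested. Of 15402 genes 0.740% were called (0.714% higher and 0.0260% lower, or 110 and 4 genes). Median centring gave 289 and 110 genes and DESeq2 378 and 86. Of the members Gata2 alone could be tested. It read 2.37 (OKMS) and 4.48 CPM (OKS) against 3.52 and 1.32 CPM in WT, so the groups overlapped (0.41 ± 0.64, limma, adjusted p = 0.800). Tfap2c was at 8.69 CPM (11 reads) in OKMS at day 2 and at 0 in OKS and both WT libraries. Its filter needed 2 libraries, so it had no test. Ehf, at 19.0 and 31.0 CPM against 0 in both WT libraries, was called (4.66 ± 0.61, adjusted p = 0.0109). That call was lost without WT replicate 3, OKMS or OKS, where 0 genes were called, and R9 called 0 genes.

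The change of medium alone was compared in WT cells, 2 R10 libraries after 2 days in FBS-LIF with doxycycline against 2 in NPC medium. Of 14688 genes 26.8% were called, and of the 2 members tested neither was (Gata2 1.31 ± 0.45, limma, adjusted p = 0.0783; Tfap2a 0.46 ± 0.83, adjusted p = 0.713). Gata2 read 3.52 and 1.32 CPM in FBS-LIF and 0.318 and 0.287 CPM in NPC medium, with no overlap. Leaving out replicate 3 of FBS-LIF moved Gata2 to 1.80 (limma, adjusted p = 0.0393), where the lone FBS-LIF library is assumed to vary like those in NPC medium. Over the 4 runs without 1 library Gata2 ranged from 0.83 to 1.80 (limma, adjusted p 0.0393 to 0.365). Without FBS-LIF replicate 2, NPC medium replicate 2 or NPC medium replicate 3, 0 genes of the whole table were called. In R9 the single WT library of this medium held no Gata2 read. Higher and lower calls were 2193 and 1747, and 2100 and 2278 after median centring. The marker genes Id2 (3.10) and Fgfr2 (2.57) rose, 2 of 7 trophoblast markers tested. So did 4 of 8 primitive endoderm markers (Dab2 by 4.25, with Col4a2, Lamc1 and Sparc) and both surface epithelium markers tested (Klf5 and Trp63). All these calls were lost in the same 3 runs.

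Elf3 was higher in 2i-LIF than in FBS-LIF with doxycycline in each pair. In 2i-LIF it read 169, 114 and 87.3 CPM in R9 (OKMS day 14, OKMS day 20, OKS day 20) against 30.6, 20.9 and 29.5 CPM in FBS-LIF with doxycycline. In R10 at day 18 it read 148 (OKMS) and 189 CPM (OKS) against 69.7 and 12.8 CPM. All 5 values in 2i-LIF lay above all 5 in FBS-LIF. The labels list no doxycycline in 2i-LIF, so loss of the inducer and change of medium cannot be told apart.

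This was tested over the 5 pairs of the same system, day and chemistry with limma and the pair as a block. Of 14935 genes 12.3% were called (5.95% higher and 6.32% lower), and of the 7 members 2 were. Elf3 was higher in 2i-LIF by 2.24 ± 0.29 (adjusted p = 5.24e-05), in 5 of 5 pairs. The 2 R10 pairs alone did not call it (2.43, adjusted p = 0.0734). Gata6 was lower by −1.77 ± 0.51 (adjusted p = 0.0246), also in 5 of 5 pairs. Gata6 read 0, 1.07 and 1.16 CPM in R9 2i-LIF and 0 in both R10 2i-LIF libraries, against 5.28, 9.85, 1.44, 4.45 and 1.28 CPM in FBS-LIF.

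The Gata6 call rests on few reads. It was lost without the R9 OKMS day 14 pair (−1.55, adjusted p = 0.109), the R9 OKMS day 20 pair (−1.61, 0.0663) or the R10 OKMS day 18 pair (−1.60, 0.0737), with DESeq2 (−2.86, 0.189), in the 3 R9 pairs alone (−1.74, limma, 0.136) and in the 2 R10 pairs alone (−1.82, 0.219). Gata2 went the same way without a call (−1.47 ± 0.57, limma, adjusted p = 0.0985). It read 1.22, 0 and 0 CPM in R9 2i-LIF and 6.33, 4.93 and 4.31 CPM in FBS-LIF, with no overlap, whereas in R10 OKS it read 1.56 CPM in 2i-LIF and 0 in FBS-LIF. Without the R10 OKS pair it was called (−2.17, adjusted p = 0.0141), as it was in the 3 R9 pairs alone (−2.23, 0.0343).

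Tfap2c moved little with the medium. It read 30.5, 33.3 and 24.4 CPM in R9 2i-LIF and 28.2 and 39.1 CPM in R10, against 16.9, 25.9, 20.1, 29.7 and 16.6 CPM in the paired FBS-LIF libraries. It was higher in 4 of 5 pairs, by 0.51 ± 0.27 (limma, adjusted p = 0.237). Tfap2a (0.62 ± 0.63, adjusted p = 0.581), Gata3 (−0.26 ± 0.50, 0.801) and Gata4 (−0.72 ± 0.58, 0.467) were not called either. Gata4 was lower in the 3 R9 pairs and higher in both R10 pairs, where R10 OKMS in 2i-LIF held its highest value of the series, 12.3 CPM (7 reads).

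The marker genes divided in the same comparison. Of 16 trophoblast markers tested 7 fell in 2i-LIF and none rose, with Krt18 at −4.30, Id2 at −4.28, Krt8 at −3.21 and Krt7 at −2.21. Of 10 primitive endoderm markers tested 5 fell (Col4a1 by 3.83 and Col4a2 by 3.15, both basement membrane collagens, with Lamb1, Amn and Dab2) and none rose. Of 14 surface epithelium markers 6 fell and none rose, while 7 of 10 stem cell markers rose, Nanog by 2.20. Elf3 moved in the direction of the stem cell list. The summed trophoblast markers were at 176.9 to 184.4 CPM in R9 2i-LIF, at 196.0 to 229.9 CPM in R9 stem cells, at 195.5 to 222.1 CPM in R9 progenitors, and at 519.6 to 941.3 CPM in R9 FBS-LIF of days 14 and 20. Of the 18 markers, 4 to 7 were above 0 in R9 progenitors and 14 to 15 in R9 2i-LIF and stem cells. Like sums there do not mean the same genes.

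**Figure D2:**
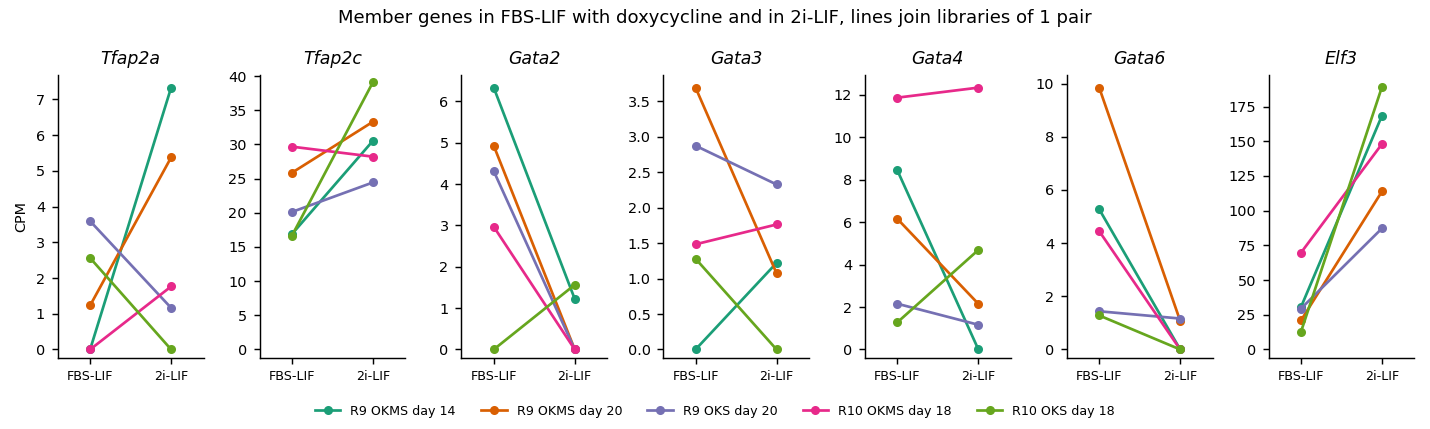
CPM (y axis, own scale per gene) of the 7 members with values in FBS-LIF with doxycycline and in 2i-LIF, 1 line per pair of the same system, day and chemistry (5 pairs). Elf3 rises and Gata6 falls in each pair, and the lines of Gata4 run both ways.

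Stem cells in 2i-LIF held 4 members above progenitors in NPC medium, so cell type and medium cannot be told apart. In R10 Elf3 ranged from 99.8 to 171 CPM (median 143) over 7 stem cell libraries and was at 0 in 3 of 4 progenitor libraries and 0.635 CPM in the other. Tfap2c ranged from 19.7 to 51.6 CPM (median 31.3) against 0 to 1.17 CPM. Tfap2a ranged from 4.27 to 13.4 CPM (median 9.86) against 0 to 1.43 CPM. Gata2 ranged from 1.12 to 4.35 CPM (median 1.31) against 0 to 0.318 CPM. The groups did not overlap for any of these 4. For Gata2, the 0 of the OKMS and OKS progenitors allows up to 1.32 and 1.75 CPM, above the lowest stem cell value. Mitochondrial reads were 0.153% to 1.11% in these progenitor libraries, below 6 of the 7 stem cell libraries, and their part in the differences was not tested.

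With limma over 7 and 4 R10 libraries, 45.8% of 15415 genes were called (3452 higher and 3615 lower, or 4196 and 3013 after median centring). Of the 5 members tested, 4 were called, all higher in stem cells. The differences were 6.94 ± 0.20 for Elf3 (adjusted p = 2.21e-13), 4.60 ± 0.28 for Tfap2c (1.01e-09), 2.79 ± 0.35 for Tfap2a (3.80e-06) and 1.21 ± 0.26 for Gata2 (6.61e-04). Gata4 differed by 0.70 ± 0.41 (adjusted p = 0.139), and Gata3 and Gata6 were too low to test. Quantile normalization left Gata2 at 0.84, under the size required. The 4 calls held without any 1 of the 11 libraries, R1 replicate 3 included.

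In R9, Elf3 (100 and 89.4 CPM) and Tfap2c (41.7 and 56.8 CPM) were at 0 in all 4 progenitor libraries. The stem cell means were 98.5-fold and 51.1-fold a floor of 3 reads over the progenitor group. Tfap2a read 2.84 and 7.45 CPM in R9 stem cells against 1.35 to 4.01 CPM in progenitors, so there the groups overlapped (0.88, limma, adjusted p = 0.185). Of 14 trophoblast markers tested in R10, 11 rose in stem cells and Id2 fell (−3.86), and of 12 surface epithelium markers 11 rose and none fell. Of 10 primitive endoderm markers 3 rose and 5 fell (Col4a2 by 3.66, Col4a1 by 3.36 and Lamb1 by 2.75, with Amn and Sparc), so these 5 were higher in progenitors. Cdx1, a relative of Cdx2, rose by 4.11 and read 9.28 to 46.5 CPM in the 7 R10 stem cell libraries.

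**Figure D3:**
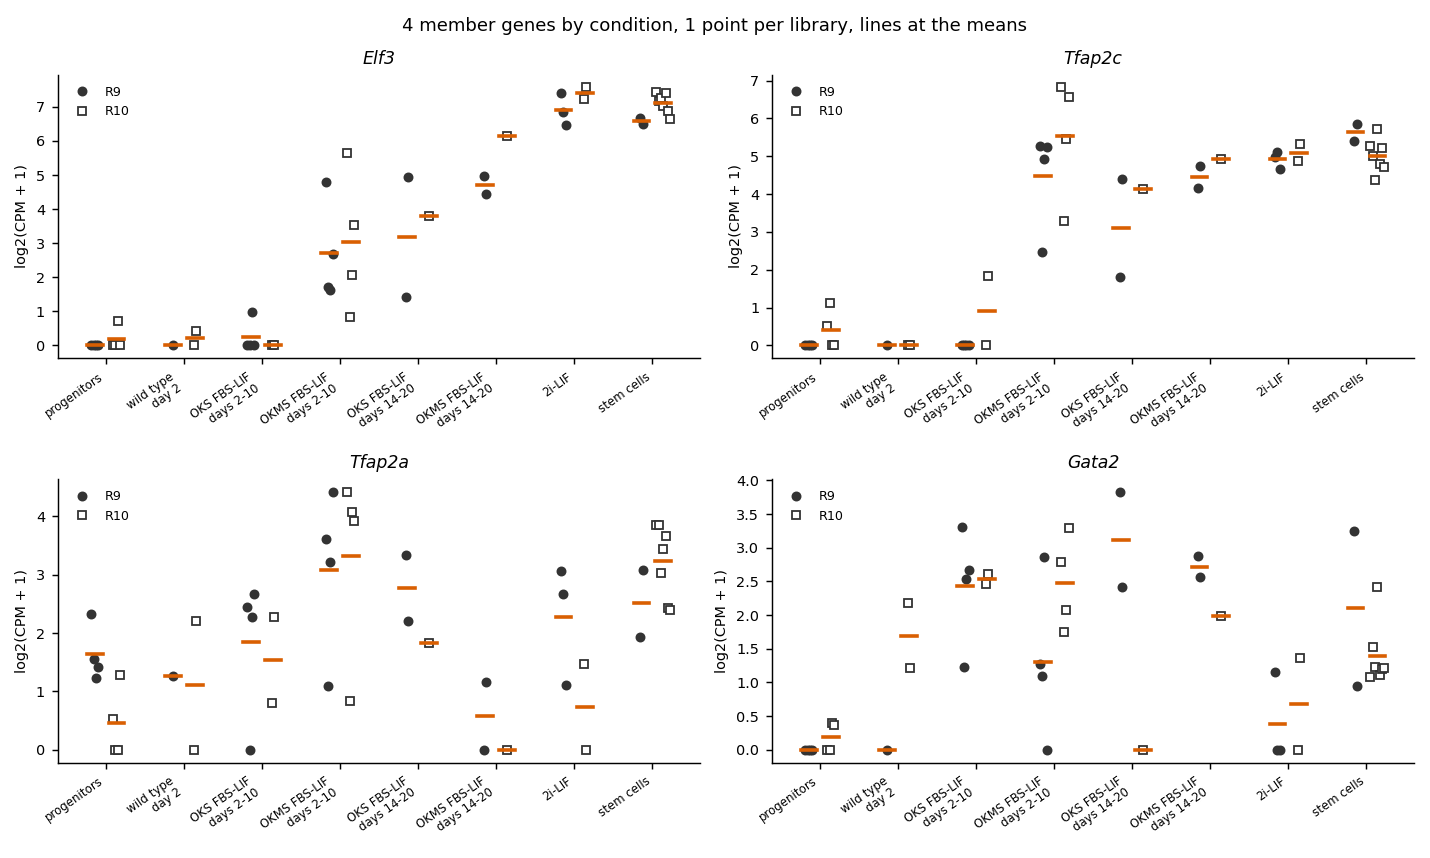
log2(CPM + 1) of Elf3, Tfap2c, Tfap2a and Gata2 (y axis, own scale per gene) by condition (x axis), 1 point per library, with orange lines at the means of each chemistry (filled circles R9, open squares R10). Elf3 in 2i-LIF lies at the level of stem cells, and Tfap2c in OKMS of days 2 to 10 runs from 9.18% of the stem cell mean (R9 day 2) to 343% (R10 day 10).

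By condition mean, Elf3 was highest in stem cells and 2i-LIF, followed by OKMS in FBS-LIF of days 14 to 20. Late OKS had no fixed place: in R10 its day 18 (12.8 CPM) lay below OKMS of day 10 (49.2 CPM). The ranges of 2i-LIF and stem cells overlapped in both chemistries (87.3 to 169 and 89.4 to 100 CPM in R9, 148 to 189 and 99.8 to 171 CPM in R10), so their order is within their spread. For Tfap2c, stem cells, 2i-LIF and OKMS of days 4 to 20 could not be put in order across both chemistries. Progenitors, WT and OKS of days 2 to 10 were lowest for both genes, at 2.56 CPM or less.

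Late cells in FBS-LIF with doxycycline were set against stem cells over both chemistries, 6 libraries (days 14, 18 and 20) against 9, with chemistry as a term. All 9 stem cell libraries were in 2i-LIF, so cell state, medium and doxycycline cannot be told apart here. Reprogrammed cells moved to 2i-LIF held 87.3 to 189 CPM of Elf3, against 89.4 to 171 CPM in stem cells. Of 14731 genes 17.4% were called in limma (8.19% higher and 9.17% lower), and of the 7 members 2 were, both lower. Elf3 was lower by −2.38 ± 0.49 (adjusted p = 0.00182); R9 alone did not call it (−2.64, adjusted p = 0.229). Its values were 1.65 to 30.6 CPM in R9 and 12.8 and 69.7 CPM in R10, all below the lowest stem cell library. As a share of the stem cell mean of its chemistry, Elf3 stood at 22.1% in R9 OKMS and 31.1% in R9 OKS at day 20, and at 49.8% and 9.14% in R10 OKMS and OKS at day 18.

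Tfap2a was lower by −1.64 ± 0.53 (adjusted p = 0.0336). This call was lost without R9 OKMS day 14 (−1.43, adjusted p = 0.0564), R10 OKMS day 18 (−1.06, 0.195), R10 OKS day 18 (−1.79, 0.0560), the R9 R1 stem cells (−1.62, 0.0730) or R10 O4G stem cell replicate 1 (−1.57, 0.0503). It was also lost with no filter, with edgeR (−1.32, 0.203), with DESeq2 (−1.38, 0.115) and in R9 alone (−0.84, limma, 0.688). Tfap2c differed by −1.11 ± 0.42 (limma, adjusted p = 0.0657). It was called without R9 OKMS day 20 (−1.22, 0.0412) and without R10 OKMS day 18 (−1.47, 0.0324). At day 20 of R9 Tfap2c stood at 52.5% (OKMS) and 40.9% (OKS) of the stem cell mean.

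Gata6 leaned the other way, higher in late FBS-LIF by 1.25 ± 0.50 (limma, adjusted p = 0.0759). It was called without R9 OKS day 14 (1.54, adjusted p = 0.00884), with quantile normalization (1.30, 0.0484) and in R10 alone (1.57, 0.00730), where the stem cell libraries held 0 to 0.656 CPM. In R9 the groups overlapped, with Gata6 at 0 and 2.79 CPM in stem cells and 0 and 1.44 CPM in OKS at days 14 and 20. Gata2 (0.16 ± 0.46), Gata3 (0.46 ± 0.42) and Gata4 (0.76 ± 0.57) were not called. Of 10 primitive endoderm markers tested 6 were higher in late FBS-LIF (Col4a1 by 5.40) and none lower. Of 15 trophoblast markers 4 were higher (Id2, Krt18, Ascl2, Krt8) and Tfeb was lower, and Cdx1 was lower by −2.79. Progenitor markers were also higher in 4 of 7 tested, and 7 of 10 stem cell markers were lower.

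**Figure D4:**
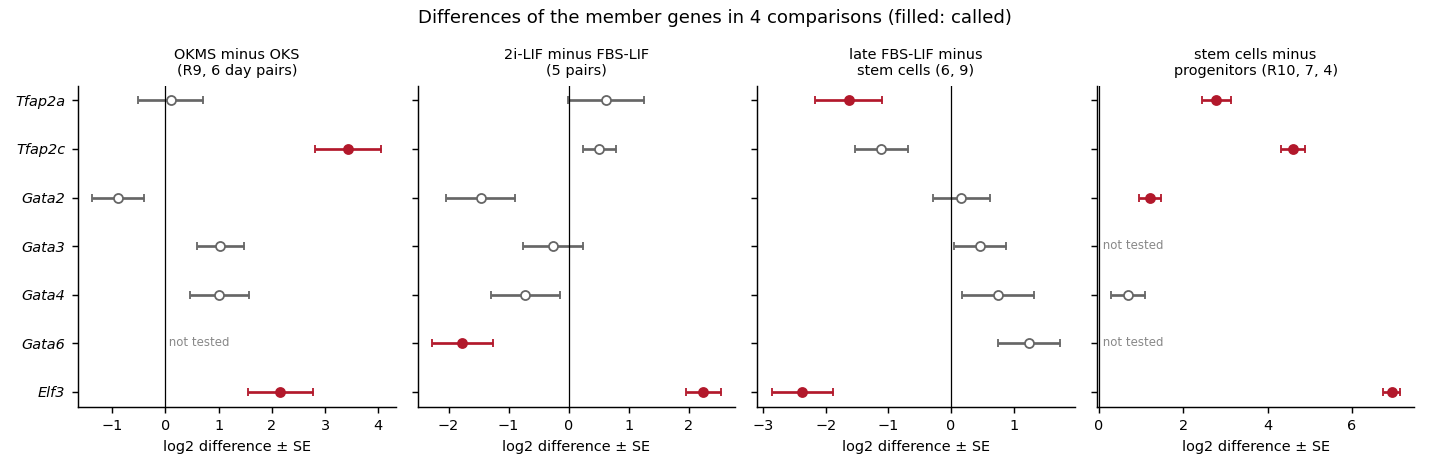
log2 differences with their SE (x axis) of the 7 members with values (y axis) in 4 limma comparisons, with the sign as named above each panel. Filled red points were called, and open grey points were not. Tfap2c and Elf3 are called between OKMS and OKS, Elf3 and Gata6 between the media, and 4 members in stem cells over progenitors.

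The full-length transcripts add where each member starts. Transcript values were TPM, which carry no depth, so reads of the gene are given beside them. Elf3 had 8 kept models. Of these 7 started within 7 bases of one another (chr1:135258457-135258463), 19 to 25 bases before the annotated start of Elf3-202. The other, G2388.23, began at 135261401 on the minus strand, 2833 bases before the nearest annotated start, with a first exon of 284 bases (chr1:135261118-135261401). A later exon of this model, not its first, holds the octamer printed above (chr1:135258613-135258620).

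That upstream start carried 41.0% of Elf3 TPM over R9 and 36.2% over R10. In the 9 stem cell libraries it ranged from 30.4% to 40.8% (96 to 608 reads), and in the 5 libraries in 2i-LIF from 32.3% to 50.6% (75 to 138 reads). In FBS-LIF, leaving aside libraries under 10 reads, it held 62.9%, 30.6% and 42.6% in R9 OKMS at days 10, 14 and 20 (17 to 29 reads) and 46.5% in R9 OKS at day 20 (41 reads). In R10 OKMS it held 36.8%, 22.3% and 43.0% at days 6, 10 and 18, and in R10 OKS at day 18 82.1% on 10 reads. The ranges of FBS-LIF and 2i-LIF overlapped, and the difference was not tested.

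Tfap2c had 9 kept models in 4 start classes. The main one (chr2:172549545-172549590) lies at the annotated start and holds 6 models. An upstream model began at 172545679, 3914 bases before it. An internal start at 172550726, 38 bases before the annotated start of Tfap2c-203, was present in 9 of 9 stem cell libraries at 2.65% to 30.3% of Tfap2c TPM (44 to 178 reads of the gene). It had no TPM in any of 11 OKMS libraries in FBS-LIF, including those of 132 (R10 day 10) and 106 reads (R10 day 6). It appeared in 2 of 5 libraries in 2i-LIF, R9 OKMS days 14 (15.2%) and 20 (11.5%), and in 1 of 3 OKS libraries with Tfap2c TPM (R10 day 18, 13.3%, 13 reads). The second internal start, at 172551054, lies inside the first exon of that model (172550726-172551221). It was in 6 of 9 stem cell libraries (up to 19.8%) and 1 of 11 OKMS libraries in FBS-LIF (19.6%, R9). It was also in 1 of 3 OKS libraries (62.5%, R9), which held 3 to 28 reads of the gene, and 1 of 5 in 2i-LIF (44.8%, R9). A model at 0 TPM can have gone without an assigned read, and no test was made on these shares.

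**Figure D5:**
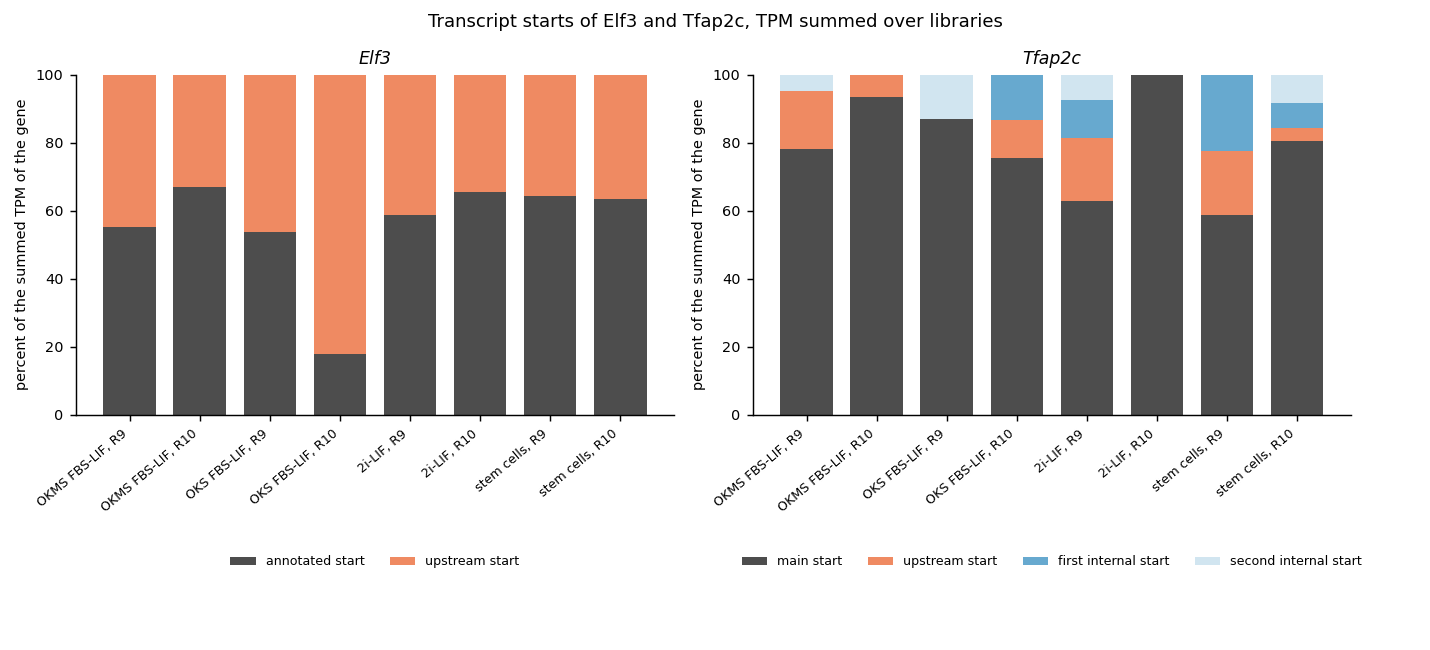
Percent of the summed TPM of Elf3 and Tfap2c (y axis, 0 to 100) by start class, for 4 conditions in each chemistry (x axis), summed over libraries. The upstream start of Elf3 is present in every bar, and the first internal start of Tfap2c is missing from both OKMS bars and the R9 OKS bar in FBS-LIF and from the R10 bar of 2i-LIF.

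Both kept Gata2 models started at the proximal promoter (chr6:88198659 and 88198664), and none at the distal annotated start of 88193891. Tfap2a models started at 40730463 and 40730510, the start of Tfap2a-201, and at 40733984, the start of Tfap2a-206. The kept models of Gata3, Gata4 and Gata6 were incomplete splice matches only (2, 1 and 1 models), so their starts are not described. For Cdx2 the authors' list before filtering held 3 models, 1 of them a full-splice match, and for Eomes 10 models, 6 of them full-splice matches. None of the 13 was kept, so the level of either gene was not analysed here.

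Likeness to other genes was measured as the smaller of 2 Pearson correlations of log2(CPM + 1), 1 over the 22 R9 and 1 over the 23 R10 libraries, among about 15562 genes. The libraries share depth, chemistry and cell lines, and these values describe them only. Elf3 was most like Pramef12 (0.975), Nanog (0.975) and Gstp2 (0.974). Tfap2c was most like Mtfr1 (0.944), Frrs1 (0.943) and Gnpnat1 (0.934). The low members had weaker matches: Gata4 with Sct (0.747), Gata3 with Nlrp12 (0.685), Gata2 with Sat1 (0.683) and Tfap2a with novelGene_Iqgap1_AS (0.623). Among the members the closest pair was Elf3 and Tfap2c (0.89 in R9, 0.83 in R10). Gata4 and Gata6 stood at 0.81 in R9 and 0.38 in R10, and Tfap2a and Gata6 at −0.31 and −0.18.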

How the data were processed

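Gene CPM and transcript TPM were used as the authors deposited them. Reads were aligned with minimap2 2.24-r1122 to mm10, per the submitters' processing notes. The quantifier is known only from the deposited table names (IsoQuant), its version is not given in the sources used here, and the filtered transcript models carry rtracklayer 1.50.0 in the file header. The tables held 13 columns that match no sample, which were not used, and 20 gene names that had been turned into numbers. CPM of each library were whole multiples of 1 read: 100% of 711452 values above 0 lay within 0.02 of a whole number, so reads and depths were recovered. TPM keep no depth. A 0 allows up to 3 reads, for counting error only.

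Members and lists were chosen with earlier results of these data known. Groups follow the labels. Tests used limma 3.58.1 in R 4.3.3 (lmFit, eBayes with trend, two-sided) on log2(CPM + 1), which understates changes of low genes, and a gene entered when it reached 1 CPM in a number of libraries equal to the smaller arm. Benjamini-Hochberg adjustment ran over all genes tested, and calls needed an adjusted p under 0.05 and a log2 difference of 1. The scripts were tested on simulated data. Other settings tried were quantile normalization, median centring, a stricter filter (5 CPM), none at all, 0.25 as pseudocount, edgeR 4.0.16 and DESeq2 1.42.0 fitted to recovered reads, other blocks, the other chemistry, and leaving out each library or pair. With median centring, the median of all genes went from −0.11 to 0.05 between OKMS and OKS and from 0.01 to 0.24 in stem cells over progenitors.

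Text names all 9 members, at most 4 called genes of each list with the largest difference per comparison, the genes most like a member (1 such result is not reported here), and transcripts with at least 10% of a member's TPM. Other called genes of sets of 7 or fewer, Ehf, Cdx1 and the marker genes of the label check were named after their values were seen.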

Additional observations from a re-analysis of the deposited data

Results flagged for a closer look

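Among 16 groups of 4 to 10 libraries with a member value, 2 held a library far from the others. Chance picks about 1 in 20 groups of continuous values, a rate that does not hold for low counts with ties at 0, such as those of Elf3 here. Elf3 was at 0.635 CPM (2 reads) in R10 WT progenitors replicate 2 and at 0 in the other 3 R10 progenitor libraries. Gata2 was at 4.35 CPM in R10 stem cells of R1 clone 3 replicate 1 and at 1.12 to 1.88 CPM in the other 6 R10 stem cell libraries.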

How the results depend on the processing

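For single members, all alternatives except leaving out 1 library or pair were counted, including fits of 1 chemistry alone. Of these, 296 kept the direction and the side of the threshold, 16 lost a call, 9 gained a call and 14 reversed. The cause was not tested. Between OKMS and OKS the members called were 1 with a minimum of 5 CPM, 1 with edgeR, and 0 in the R10 pairs (0 genes; Tfap2a −0.051, Gata2 0.66) and without the day block (2 genes). Leaving out 1 pair gave 1686 to 3236 genes (1686 without day 6), 1 to 2 members and Tfap2a −0.23 to 0.79. For the change between early and late days edgeR gave 84 genes, 1 member and Elf3 −0.76, DESeq2 5 genes and Gata2 0.13, and the pseudocount of 0.25 Gata2 0.33. Without 1 pair Gata2 was −1.05 to 0.45 and Elf3 −0.14 to 2.50.

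Between the media 1 member was called with a minimum of 5 CPM and 1 with DESeq2. The 3 R9 pairs gave 1166 genes and the 2 R10 pairs 188 genes and 0 members (Tfap2a −0.18, Gata4 0.69). Without 1 pair 1210 to 1908 genes (1210 without R9 OKS day 20) and 1 to 3 members were called. In stem cells over progenitors R9 called 2 members. In WT cells R9 gave 1562 genes and Tfap2a −0.67, and leaving out 1 library 0 to 1141 genes, 0 to 1 members and Tfap2a −0.64 to 1.57. The WT libraries share only the replicate numbers 2 and 3: the replicate block gave 5605 genes and 1 member (Gata2 1.31, limma, adjusted p = 0.0199), and the deviations of same-numbered libraries correlated at 0.474 over 14688 genes in 2 pairs.

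For day 2 against WT the genes called were 74 (pseudocount 0.25), 181 (minimum of 5 CPM), 29 (quantile), 399 (median centring), 334 (edgeR), 464 (DESeq2) and 0 (R9), and 0 to 115 without 1 library, with Gata2 −0.074 to 0.89. In the time course the members called were 1 with median centring, 2 with edgeR (4573 genes; Gata3 −2.64, Gata4 −2.69) and 1 with DESeq2 (Gata3 −2.61, Gata4 −2.04), and 318 genes without the system term. Leaving out any 1 of its 14 libraries gave 371 to 1342 genes, Gata3 −1.94 to 2.61 and Gata4 −1.93 to 2.76. For late cells against stem cells the members called were 1 without a filter, 1 with edgeR, 1 with DESeq2 and 0 in R9 (191 genes), and a minimum of 5 CPM gave 1580 genes. Gata2 there was −0.066 with the pseudocount of 0.25 and −0.40 in R10, and without 1 library −0.38 to 0.73, with 1 to 3 members called. Gata3, Gata4 and Gata6 rest on 19 reads or fewer in any library, which limits what depth can show for them.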
